A study of Mus musculus with 15 samples.

Results

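Transcript levels of 9 genes of the YAP and TEAD pathway were followed in 4T1 cells, a mouse line of triple-negative breast cancer, with and without berry treatment. The genes were chosen by name from the 40402 rows of the deposited count table, and all 9 were found: the co-activator genes Yap1 and Wwtr1 (which encodes TAZ), the transcription factor gene Tead1, the kinase gene Lats2, and the target genes Ccn1, Ccn2, Ankrd1, Amotl2 and Axl. The 5 conditions were untreated cells and cells given blackberry extract (BLA), blueberry extract (BLU), gold nanoparticles made with blackberry extract (BLA-A) or gold nanoparticles made with blueberry extract (BLU-A). All cells carry the label WT, came from the same line and grew in RPMI1640 medium with 10% serum, and treatment began 24 hours after seeding. The labels do not give the length of treatment, and gold particles made without an extract were not analysed here. The deposited table has 3 columns per condition. The labels number them as replicates and give each its own date, while the sequencing report of the study lists 1 total of raw reads per condition and 3 subsets drawn from it. These columns differed by less than the sampling noise (chi-square per degree of freedom 0.0951 to 0.475), so they were averaged and counted as 1 sample. Each condition therefore has 1 library, and differences between single conditions have no replicate check.

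In the Hippo pathway, the kinases MST1 and MST2 activate LATS1 and LATS2, which phosphorylate YAP and TAZ and keep them in the cytoplasm or mark them for degradation. Unphosphorylated YAP and TAZ enter the nucleus, bind TEAD factors on DNA and switch on target genes, of which Ccn1, Ccn2 and Ankrd1 are the ones most often used as a readout. Some targets, such as Lats2 and Amotl2, restrain YAP in turn. YAP and TAZ are controlled mainly at the protein level, which RNA-seq does not measure, and in breast cancer cells they are known for their part in growth and invasion.

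The TEAD factors bind the letters CATTCC, or GGAATG on the other strand. RefSeq promoter windows, which run from 250 bases before to 50 bases after a start site, were found for 7 of the 9 genes. Tead1 and Ccn2 have no entry. The sequences come from a RefSeq table of build GRCm38.p6, and each of the 9 windows of these genes matched GRCm39 exactly once, which gave the positions below. All 7 genes hold the 6 letters in at least 1 window, and 8 of their 9 windows do. Both windows of Wwtr1 overlap and hold the same site. Of all 32851 promoter windows of this length, 14.7% hold the letters, and of all 27025 genes with a window 16.6% do. Since the 9 genes were chosen as YAP and TEAD genes, their counts were not tested against these shares. A match of letters is a description and not a binding site. The motif TGANTCA of AP-1 factors, which often bind beside TEAD, was found in 7.81% of all windows and in none of the 9. The 250 bases before the start of Ccn1 and Ankrd1 are shown in full, 5′ to 3′ on the strand of the gene, because BLA-A was the highest library for one and the lowest for the other. Capitals mark the 6 letters.

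Ccn1 (chr3:145355741-145355990, minus strand, GRCm39): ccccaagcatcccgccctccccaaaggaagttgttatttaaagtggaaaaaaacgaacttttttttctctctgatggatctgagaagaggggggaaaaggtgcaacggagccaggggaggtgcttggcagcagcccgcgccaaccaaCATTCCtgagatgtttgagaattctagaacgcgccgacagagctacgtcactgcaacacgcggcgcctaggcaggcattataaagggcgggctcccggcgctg

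Ankrd1 (chr19:36097245-36097494, minus strand, GRCm39): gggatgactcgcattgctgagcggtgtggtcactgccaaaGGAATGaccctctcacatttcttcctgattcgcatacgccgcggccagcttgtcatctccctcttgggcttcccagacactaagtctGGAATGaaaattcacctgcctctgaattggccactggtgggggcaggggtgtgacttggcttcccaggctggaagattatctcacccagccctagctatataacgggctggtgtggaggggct

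The Ccn1 window held the letters once, 103 bases upstream of the start, and the Ankrd1 window held them at 210 and 123 bases upstream. For the other 5 genes a stretch of 30 bases around the letters is shown, to let the flanks be compared. It lies 141 bases upstream of the start in Yap1, 136 in Wwtr1, 65 in Amotl2 and 233 in Axl, and 4 bases downstream in Lats2. Each start meant here is that of the RefSeq window. The gene positions given below come from GENCODE, whose genes can start further upstream. The windows of Ankrd1, Amotl2 and Lats2 lie wholly inside those gene positions.

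Yap1: cgggagtctgcaGGAATGtagcgacgcgca
Wwtr1: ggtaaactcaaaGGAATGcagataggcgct
Lats2: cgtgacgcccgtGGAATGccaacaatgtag
Amotl2: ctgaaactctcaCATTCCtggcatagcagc
Axl: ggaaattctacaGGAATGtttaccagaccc

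The total count per column ran from 25611976 to 26957141, so a floor of 3 counts lay at 0.111 to 0.117 CPM, which is the count relative to the library total. Levels below are CPM scaled by TMM, a method that sets library sizes by the bulk of genes. The TMM factor of BLA-A was 0.905, while those of the other libraries lay between 1.01 and 1.03. Scaling by total counts alone moved the median log2 fold change of all genes in BLA-A against untreated cells by -0.17. BLA-A values thus depend on the scaling by about that much or somewhat more. The log2 fold change of Ccn1 in BLA-A was 1.15 with TMM and 0.96 with total counts. It was 1.21 with the size factors of DESeq2 and 1.25 with TMM and no filter on low counts. The 7 epithelial markers of the labelled mammary cells were all detected in every library, with a sum of 967 to 1751 CPM. That sum was highest in BLA-A and lowest in BLA, and Krt18 was its largest part. Its members did not all follow it. In BLA-A 6 of the 7 lay above untreated cells, but Epcam was at 39.7 CPM against 68.9 CPM. Krt19 was higher in BLA, at 18.0 CPM, than in untreated cells, at 11.5 CPM. The sums were 88.2 to 103.6 CPM for 7 fibroblast markers, of which Pdgfra gave nearly all, 3.93 to 8.82 CPM for 5 endothelial markers and 9.24 to 11.2 CPM for 6 immune markers, most of it Cd68. The fibroblast marker Thy1 had no count in any library. In bulk RNA, fewer cells of a type and less RNA per cell cannot be told apart.

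Transcripts of Yap1, Wwtr1 and Tead1 were higher in all 4 treatments than in untreated cells, by log2 fold changes of 0.10 to 0.79, while Ankrd1 was lower in all 4. Ccn2 was lower in BLU-A and did not differ from untreated cells beyond counting error in the other 3 treatments. Ccn1 and Axl lay below the untreated level in BLA, BLU and BLU-A but above it in BLA-A, where Ccn1 was 2.22-fold higher. For Yap1, Wwtr1, Tead1, Ankrd1, Ccn1 and Axl, and for Ccn2 in BLU-A, these directions were the same under each scaling tried. Ccn2 in BLA-A had a log2 fold change of -0.11, within counting error, but of -0.30 with scaling by total counts.

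Yap1, the gene of the co-activator YAP (chr9:7932000-8004661, minus strand, GRCm39), was at 128 CPM in untreated cells, 145 CPM with BLA and 221 CPM with BLA-A, and 156 CPM with BLU and 137 CPM with BLU-A. BLA-A was the highest library, and all neighbours in the order of levels differed beyond the counting error of their ratio. The single intervals of BLU-A (132.69 to 141.65 CPM) and BLA (140.63 to 149.71 CPM) did overlap. The log2 fold changes against untreated cells were 0.79 (95% counting interval 0.73 to 0.85) with BLA-A, 0.28 with BLU, 0.18 with BLA and 0.10 with BLU-A. Counting intervals cover the sampling of reads only, not the spread between cultures.

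Wwtr1, the gene of the co-activator TAZ (chr3:57363067-57483331, minus strand), was at 316 CPM in untreated cells, 426 CPM with BLA and 429 CPM with BLA-A, and 428 CPM with BLU and 379.5 CPM with BLU-A. BLA, BLU and BLA-A could not be told apart from their neighbours in this order within counting error, and BLU-A lay between them and untreated cells. The log2 fold changes were 0.43 with either extract, 0.44 with BLA-A and 0.26 with BLU-A. Between the blackberry nanoparticle and its extract, Wwtr1 had a log2 difference of 0.01 (interval -0.03 to 0.05), where Yap1 had one of 0.60 (0.55 to 0.67). With scaling by total counts the Wwtr1 difference was -0.15.

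Tead1, which encodes the DNA-binding partner (chr7:112278522-112506014, plus strand), was at 371 CPM in untreated cells, 553 CPM with BLA and 579.9 CPM with BLA-A, and 526 CPM with BLU and 456 CPM with BLU-A. Its log2 fold changes of 0.58 with BLA, 0.50 with BLU and 0.30 with BLU-A were the highest of the 9 genes in these treatments, and it was at 0.64 with BLA-A. The profile of Tead1 over the 5 libraries was close to that of Wwtr1, with a root mean square difference of 0.0748 on the log2 scale after centring.

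The other TEAD genes encode factors that bind the same DNA letters. Tead4 was at 43.5 CPM in untreated cells, 60.7 CPM with BLA, 63.2 CPM with BLA-A, 53.4 CPM with BLU and 59.0 CPM with BLU-A. Tead3 had 7.50, 12.4, 17.7, 10.4 and 11.5 CPM in the same order. Both were thus higher in all 4 treatments, and Tead3 in BLA-A had a log2 fold change of 1.18, which was 1.00 with scaling by total counts. Tead2 behaved otherwise, at 51.2 CPM in untreated cells and 90.0 CPM with BLA-A but 49.7, 41.2 and 40.4 CPM with BLA, BLU and BLU-A. Of the 8 listed TEAD and VGLL genes, 6 reached 1 CPM in at least 1 library, and all 6 lay above untreated cells in BLA-A, where 4 did in each other treatment. Among them, Vgll3 was at 0.863 CPM in untreated cells and 0.189 to 1.21 CPM in the treatments, so its directions rest on few counts. Tead2 in BLA was near 0, at a log2 fold change of -0.04. Among all genes with a mean of at least 10 CPM, 1601 of 2639 of at least 60 kb lay above untreated cells in BLA-A. So did 2875 of 5217 under 35 kb, and the TEAD and VGLL count was not tested against these.

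Lats2, the kinase gene that YAP also induces (chr14:57926960-57995845, minus strand), was at 77.4 CPM in untreated cells, 105.5 CPM with BLA and 81.5 CPM with BLA-A, and 78.7 CPM with BLU and 71.35 CPM with BLU-A. BLA was the high library, and untreated cells, BLU and BLA-A did not differ from their neighbours beyond counting error. The log2 fold change was 0.44 (interval 0.36 to 0.53) in BLA, and its sign in BLU and BLA-A turned under another scaling. The Lats2 locus overlaps 6 other annotated genes, the most of the 9. Yap1, Wwtr1, Tead1, Ccn1, Ccn2 and Ankrd1 each overlap a gene on the opposite strand as well, and Amotl2 and Axl overlap none. Since the mate reads were merged before counting, reads of overlapping genes cannot be told apart with certainty.

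**Figure D1:**
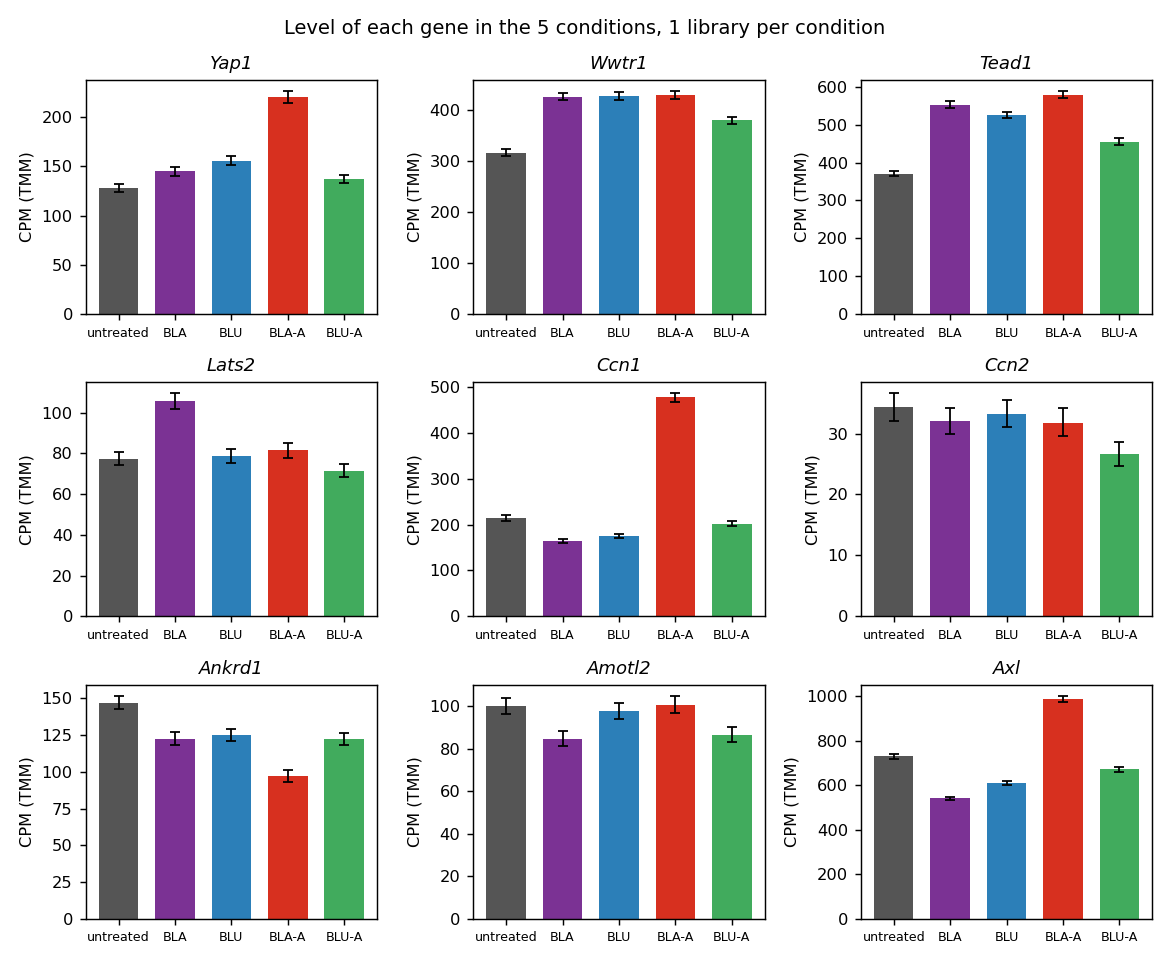
Level of each of the 9 genes as TMM-scaled CPM (vertical axis, from 0) in the 5 conditions (horizontal axis). Bars are the averaged library and error bars its 95% counting interval; the red BLA-A bar is the highest for Yap1, Wwtr1, Tead1, Ccn1, Amotl2 and Axl, within counting error of a neighbour for Wwtr1 and Amotl2, and the lowest for Ankrd1.

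Among the targets, Ccn1 varied most. Ccn1, which encodes a secreted matricellular protein also known as CYR61 (chr3:145352720-145355738, minus strand), was at 214 CPM in untreated cells, 164.5 CPM with BLA and 477 CPM with BLA-A, and 175 CPM with BLU and 202 CPM with BLU-A. BLA-A was 2.90 times the lowest library, BLA, and no neighbours in the order overlapped within counting error. The log2 fold changes against untreated cells were 1.15 (interval 1.11 to 1.20) with BLA-A, but -0.38 with BLA, -0.29 with BLU and -0.08 with BLU-A. Against its own extract BLA, BLA-A was higher by 1.53 (interval 1.49 to 1.59), and against BLU-A by 1.24 (1.19 to 1.29). With scaling by total counts the 3 BLA-A differences were 0.96, 1.37 and 1.05. One lncRNA gene, Gm17501, overlaps Ccn1 on the opposite strand.

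Ccn2, the gene of the related protein CTGF (chr10:24471333-24474900, plus strand), did not share this. It was at 34.3 CPM in untreated cells, 32.0 CPM with BLA and 31.8 CPM with BLA-A, and 33.2 CPM with BLU and 26.6 CPM with BLU-A. Untreated cells, BLU, BLA and BLA-A did not differ from their neighbours in the order beyond counting error. BLU-A was lower, with a log2 fold change of -0.36 (interval -0.51 to -0.22). With BLA-A the value was -0.11 (interval -0.25 to 0.03), but -0.30 with scaling by total counts.

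Ankrd1, which encodes a nuclear ankyrin repeat protein (chr19:36089352-36097506, minus strand), was at 147 CPM in untreated cells, 123 CPM with BLA and 97.3 CPM with BLA-A, and 125 CPM with BLU and 122 CPM with BLU-A. Untreated cells were the highest and BLA-A the lowest, and the other 3 treatments lay together between them. The log2 fold changes were -0.59 (interval -0.67 to -0.52) with BLA-A and -0.26, -0.23 and -0.27 with BLA, BLU and BLU-A. Ankrd1 and Ccn1 thus stood at opposite ends in BLA-A, which was the lowest library for one and the highest for the other.

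Amotl2, the gene of an angiomotin that binds YAP at junctions (chr9:102593836-102610617, plus strand), varied least, from 84.6 CPM in BLA to 100.6 CPM in BLA-A. It was at 99.96 CPM in untreated cells, 97.5 CPM with BLU and 86.6 CPM with BLU-A. The log2 fold changes were -0.24 in BLA and -0.21 in BLU-A, with counting intervals below 0. They were -0.04 in BLU and 0.01 in BLA-A, with intervals that included 0. With scaling by total counts the BLA-A value was -0.18, so BLA-A then lay below untreated cells.

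Axl, the gene of a receptor tyrosine kinase of the TAM family (chr7:25456535-25488329, minus strand), was at 731 CPM in untreated cells, 541 CPM with BLA and 989.9 CPM with BLA-A, and 611 CPM with BLU and 672 CPM with BLU-A. The order of the 5 libraries was the same as for Ccn1. The log2 fold changes were 0.44 with BLA-A and -0.43, -0.26 and -0.12 with BLA, BLU and BLU-A, and BLA-A was higher than BLA by 0.87 (interval 0.84 to 0.90). Of the other TAM receptor genes, Tyro3 ran from 20.0 to 25.9 CPM and Mertk from 9.92 to 17.2 CPM, and neither was highest in BLA-A. Of the TAM ligands, Pros1 was at 13.4 to 19.1 CPM and Gas6 did not reach 1 CPM in any library.

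**Figure D2:**
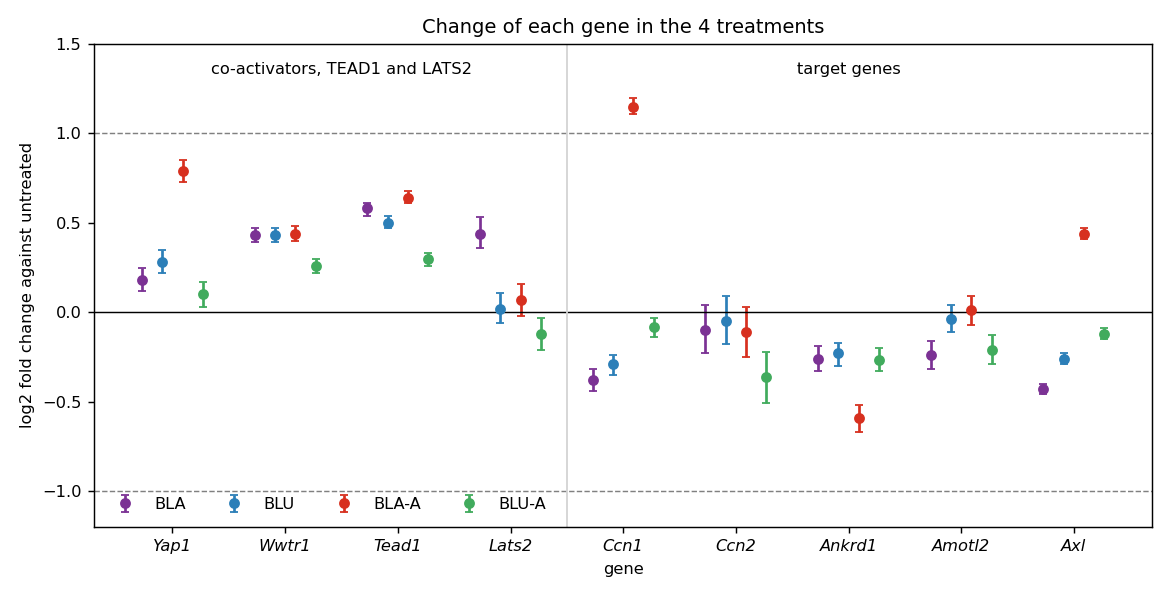
Log2 fold change of TMM-scaled CPM plus 0.5 against untreated cells (vertical axis) for the 9 genes (horizontal axis) in the 4 treatments (colours), with 95% counting intervals as bars. Dashed lines mark 1 and -1; Ccn1 in BLA-A, at 1.15, is the 1 point beyond them.

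Ratios of counts within a library do not depend on the scaling. The ratio of Ccn1 to Ccn2 counts was 15.0 (interval 13.9 to 16.2) with BLA-A, against 6.25 in untreated cells and 5.14, 5.26 and 7.58 with BLA, BLU and BLU-A. The ratio of Ccn1 to Ankrd1 counts was 4.90 (interval 4.69 to 5.13) with BLA-A, against 1.46 in untreated cells and 1.34, 1.40 and 1.65 with BLA, BLU and BLU-A. In both ratios BLA-A was the highest library and its interval overlapped no other. Among the regulators, Yap1 over Wwtr1 was 0.404 in untreated cells, 0.515 with BLA-A and 0.340, 0.364 and 0.361 with BLA, BLU and BLU-A. BLA-A was the 1 treatment above untreated cells in this ratio. Lats2 over Yap1 was 0.606 in untreated cells, highest at 0.727 in BLA and lowest at 0.369 in BLA-A, with 0.505 in BLU and 0.520 in BLU-A.

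**Figure D3:**
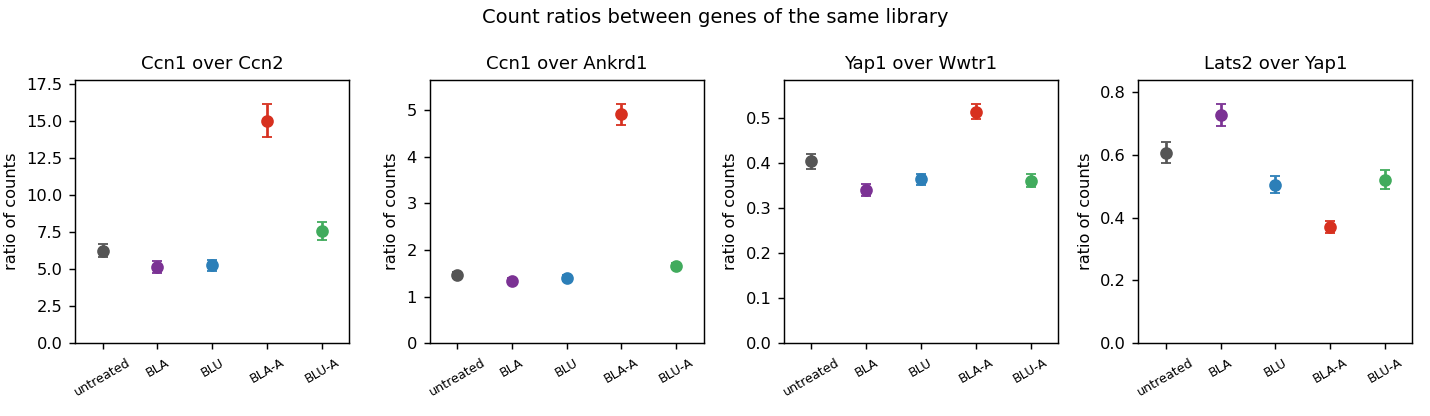
Ratio of counts between pairs of genes in the same library (vertical axes, from 0) in the 5 conditions (horizontal axes), with 95% counting intervals as bars. Ccn1 over Ccn2 is at 15.0 in BLA-A and between 5.14 and 7.58 in the other 4 conditions.

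Levels of different genes can be compared only per length. Per kb of annotated exon, Ccn1 was the highest of the 9 genes in untreated cells with 105.4 CPM per kb, followed by Axl with 79.6, Ankrd1 with 49.3, Tead1 with 27.3 and Wwtr1 with 26.7 CPM per kb. Amotl2 with 14.2, Yap1 with 13.6, Ccn2 with 10.8 and Lats2 with 7.39 CPM per kb were lower. Per kb of the whole gene span, which is what the counting covered, Ccn1, Axl and Ankrd1 again led with 70.9, 23.0 and 18.0 CPM per kb. In that unit the 4 regulators, whose exons make up 5.97% to 15.2% of the span, lay lowest, between 1.12 and 2.63 CPM per kb.

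The question of each treatment against untreated cells was put to all 17647 genes that reached 1 CPM in any library, and all 9 genes passed this filter. A log2 fold change over 1 in size, the limit of the study's methods, was passed by 0 of the 9 genes in BLA, against 16.5% of all genes. It was passed by 0 in BLU (10.3% of all genes), by Ccn1 in BLA-A (20.9%) and by 0 in BLU-A (7.85%). When the filter was raised to a mean of 10 CPM, which left 9763 genes and all of the 9, the shares were 5.3% with BLA, 2.38% with BLU, 12.5% with BLA-A and 0.881% with BLU-A, so genes with few counts gave much of the larger shares. Counts of 0 or 1 among 9 genes say little beside these shares. The median log2 fold change of the 9 genes was 0.44 with BLA-A and -0.10, -0.04 and -0.12 with BLA, BLU and BLU-A, where that of all genes was -0.01 in the first 3 of these and 0.00 in BLU-A. In BLA-A, 7 of the 9 genes were above untreated cells (5 with scaling by total counts), and 4, 4 and 3 were with BLA, BLU and BLU-A. These comparisons share the untreated library.

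The nanoparticle was compared with its own extract for each berry. Ccn1 alone of the 9 genes passed the limit for blackberry, where 24.5% of all genes did, and 0 passed it for blueberry, where 6.76% did. Among genes with a mean of at least 10 CPM, which include the 9, these shares were 17.5% for blackberry and 0.369% for blueberry. In blackberry, Ccn1, Axl and Yap1 were higher with the nanoparticle, by 1.53, 0.87 and 0.60, while Lats2 and Ankrd1 were lower, with log2 differences of -0.37 and -0.33. In blueberry all 9 differences lay between -0.31 and 0.21. Ccn1 was 0.21 and Axl 0.14 higher with the nanoparticle there, in the same direction as in blackberry. Yap1 was at -0.18, opposite to blackberry. The difference between the berries was not tested, since each arm has 1 library.

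The berries were then compared at the same form. Between the extracts, 0 of the 9 genes passed the limit, against 10.6% of all genes and 0.492% of those with a mean of at least 10 CPM. The differences of BLA from BLU ran from -0.20 for Amotl2 to 0.42 for Lats2. Between the nanoparticles, Ccn1 passed the limit, against 19.2% of all genes and 13.4% of those with a mean of at least 10 CPM. There 8 of the 9 genes were higher in BLA-A than in BLU-A, with a median of 0.25, and Ankrd1 was lower, with a log2 difference of -0.33. With scaling by total counts, Wwtr1 was no longer among the higher ones, at -0.01.

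Groups of libraries were compared by quasi-likelihood tests in edgeR, adjusted by the method of Benjamini and Hochberg over the 17647 genes. With the 4 treated libraries against the untreated one, 0 of the 9 genes passed an adjusted p of 0.05, and 4 of all genes did (0.0227%), with 481 at an unadjusted p under 0.05 and 18 adjusted calls by DESeq2. The lowest unadjusted p of the 9 genes was that of Tead1, with a log2 fold change of 0.51 ± 0.24 (SE), an unadjusted p of 0.0721 and an adjusted p of 0.999 in this edgeR test. Tead1 was higher in 4 of 4 treatments. With the 2 nanoparticle libraries against the 2 extract libraries, 0 of the 9 and 0 of all genes passed (0%), with 1058 at an unadjusted p under 0.05 and 36 by DESeq2. Ccn1 was 1.00 ± 0.38 (SE) higher in log2 with the nanoparticles, with an unadjusted p of 0.0339 and an adjusted p of 0.702 in the edgeR test, and was higher in both berries. That value of Ccn1 was 0.25 without BLA-A and 1.60 without BLU-A. With the 2 blackberry against the 2 blueberry libraries, again 0 of the 9 and 0 of all genes passed (0%), with 674 at an unadjusted p under 0.05 and 27 by DESeq2, and the lowest edgeR adjusted p of the 9 genes was 0.947. The spread in these tests is that between different treatments, and the untreated group has 1 library, so a p that misses the limit does not show that levels were alike.

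Counts of listed genes past the limit are read against all genes, of which 7.92% passed it upward and 8.54% downward with BLA, 5.66% and 4.64% with BLU, 8.54% and 12.4% with BLA-A, and 3.35% and 4.5% with BLU-A. No list was tested against these shares. Of 16 genes of the kinase cascade, all tested, Tnik passed it in BLA and BLU, with log2 fold changes of 1.05 and 1.02. Tnik encodes a kinase of the MAP4K group that can activate LATS, and was at 76.7 CPM in untreated cells, 158.9 and 155.6 CPM with the extracts BLA and BLU, and 86.3 and 118.6 CPM with the nanoparticles BLA-A and BLU-A. It was thus highest with the extracts. With DESeq2 size factors the BLU value was 0.97. The median of the cascade was 0.31 with BLA-A (0.11 with scaling by total counts) and 0.01, 0.07 and 0.04 with BLA, BLU and BLU-A.

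Among 17 upstream inputs and scaffolds, 15 were tested, and 2 passed the limit downward in BLA (Fat4 and Fjx1) and 1 in BLA-A (Fat4). Both encode parts of the Fat cadherin branch and were near the detection limit, Fat4 at 0.0431 to 1.54 CPM and Fjx1 at 0 to 1.12 CPM, so their fold changes rest on few counts. Of the 10 tested subunits of STRIPAK, a phosphatase complex that removes the activating phosphate from MST kinases, 9 lay above untreated cells in BLA-A (7 with scaling by total counts) and 1 passed the limit. That gene, Ppp2r1a, the scaffold of phosphatase PP2A, was at 103.8 CPM in untreated cells, 275.7 CPM with BLA-A and 80.9, 92.3 and 90.2 CPM with BLA, BLU and BLU-A. Its log2 fold change in BLA-A was 1.41. All 4 genes of the enzymes that phosphorylate and ubiquitinate YAP and TAZ for degradation were above untreated cells in BLA-A, with values of 0.65 to 1.17. The highest was Btrc, a ubiquitin ligase subunit, which had 62.4 CPM in untreated cells and 140.7 CPM with BLA-A, against 82.0, 87.0 and 85.2 CPM with BLA, BLU and BLU-A. With scaling by total counts it was at 0.97. Genes at large with a mean of at least 10 CPM also lay above untreated cells in BLA-A in many cases. They were 1601 of 2639 genes of at least 60 kb and 2875 of 5217 under 35 kb. With scaling by total counts they were 1167 and 2326. The list counts were not tested against these.

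The wider target signature of YAP and TAZ, which includes 6 of the 9 genes, held genes past the limit in both directions. Of its 22 genes 19 were tested. With BLA, 0 passed the limit upward and 2 downward, with BLA-A 2 and 2, with BLU 0 and 0, and with BLU-A 0 and 1. The median was 0.06 with BLA, 0.07 with BLA-A (-0.12 with scaling by total counts), 0.09 with BLU and -0.08 with BLU-A. Upward in BLA-A were Ccn1 and F3, the gene of tissue factor, which was at 4.54 CPM in untreated cells, 9.88 CPM with BLA-A and 3.60, 4.25 and 3.96 CPM with BLA, BLU and BLU-A. F3 also lay below the untreated level in the other treatments, at -0.30, -0.09 and -0.18 with BLA, BLU and BLU-A. No counting interval was computed for F3, whose level is low. Its log2 fold change of 1.04 in BLA-A was 0.86 with scaling by total counts.

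Downward in BLA-A were Gadd45a and Rbms3. Gadd45a, a stress gene induced by DNA damage, was at 76.7 CPM in untreated cells, 16.1 CPM with BLA-A and 83.7, 77.0 and 95.2 CPM with BLA, BLU and BLU-A. BLA-A alone was low, with a log2 fold change of -2.22. Rbms3, which encodes an RNA-binding protein, was at 15.2 CPM in untreated cells, 3.01 CPM with BLA and 0.561 CPM with BLA-A, and 10.3 CPM with BLU and 5.28 CPM with BLU-A. It was lower in all 4 treatments, with log2 fold changes of -2.16, -3.89, -0.55 and -1.44 in that order.

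In the CCN family, whose 6 genes were all tested, no treatment moved all members the same way. Ccn4 was at 8.40 CPM in untreated cells, 20.7 CPM with BLA-A and 10.4, 11.5 and 8.90 CPM with BLA, BLU and BLU-A, and like Ccn1 it was highest in BLA-A. Ccn3 was at 5.18, 10.0, 2.42, 2.18 and 3.40 CPM in the same order, again highest in BLA-A. Ccn5 was highest in BLU-A and BLA, at 5.81 and 4.92 CPM, against 1.80 CPM in untreated cells, 1.78 CPM in BLU and 1.29 CPM in BLA-A. The log2 fold changes past the limit were 1.15 for Ccn1 and 1.25 for Ccn4 with BLA-A, 1.24 and 1.46 for Ccn5 with BLA and BLU-A, and -1.08 for Ccn3 with BLU. Ccn6 stayed between 1.25 and 2.79 CPM.

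Some genes outside the pathway had profiles near those of the 3 readout targets. Over the 5 libraries and 9764 candidate genes with a mean of at least 10 CPM, the nearest to Ccn1 were Ampd2, an AMP deaminase, Get3, which targets tail-anchored proteins, and Sdc1, the proteoglycan syndecan-1, with root mean square differences of 0.0271, 0.0351 and 0.0377 in log2. Sdc1 had 127 CPM in untreated cells and 272.6 CPM with BLA-A. The nearest to Ccn2 were Mtfr1l (0.0129), Ubr7 (0.0293) and Gabpb1 (0.0417). The nearest to Ankrd1 were the mitochondrial isocitrate dehydrogenase gene Idh2 (0.0199), the chaperone gene Hsph1 (0.0302) and the calponin gene Cnn2 (0.0319). These are likenesses over 5 libraries and say nothing of shared control.

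The length of the gene moved with the split between regulators and targets. The 4 regulators Yap1, Wwtr1, Tead1 and Lats2 span 68.9 to 227 kb, and the 5 targets Ccn1, Ccn2, Ankrd1, Amotl2 and Axl span 3.02 to 31.8 kb. The median log2 fold change of the regulators was 0.44 with BLA, 0.36 with BLU, 0.18 with BLU-A and 0.54 with BLA-A, and that of the targets was -0.26, -0.23, -0.21 and 0.01 in this order. Among all genes with a mean of at least 10 CPM, the 2639 of at least 60 kb had medians of 0.31, 0.28, 0.15 and 0.12, and the 5217 under 35 kb had medians of -0.20, -0.16, -0.06 and 0.10. In BLA, BLU and BLU-A long and short genes at large thus differed in the same direction as regulators and targets, while in BLA-A long and short genes at large were close, at -0.07 and -0.09 with scaling by total counts. The medians of regulators and targets in BLA-A were 0.35 and -0.18 under that scaling. These span limits were chosen after the spans of the 9 genes were seen. The part of length in the result was not tested.

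The other 66 tested genes of the pathway lists were ordered by span in the same way in BLA, BLU and BLU-A, as far as long and short genes go. In BLA, 28 of the 32 genes of at least 60 kb lay above untreated cells, with a median of 0.23, against 10 of the 24 genes under 35 kb, with a median of -0.12. In BLU the counts were 27 of 32 and 11 of 24, and in BLU-A 22 of 32 and 11 of 24. In BLA-A they were 24 of 32 and 13 of 24, or 17 and 11 with scaling by total counts. Of the 10 genes between these spans, 4, 5 and 4 lay above untreated cells in BLA, BLU and BLU-A, with medians of -0.11, 0.01 and -0.08. In BLA-A all 10 did (8 with scaling by total counts), with a median of 0.32 that was above the 0.26 of the long genes. Among all genes with a mean of at least 10 CPM, 2075 of 2639 long and 1602 of 5217 short ones lay above untreated cells in BLA. These all-gene counts were 2121 and 1503 in BLU, 1934 and 2007 in BLU-A, and 1601 and 2875 in BLA-A. The pathway counts were not tested against them. Long genes of the target signature, such as Asap1 of 296 kb, were higher with the extracts, at 0.79 in both BLA and BLU, whereas Rbms3, the longest, was lower in every treatment. Asap1 was named for this comparison after its values were seen.

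**Figure D4:**
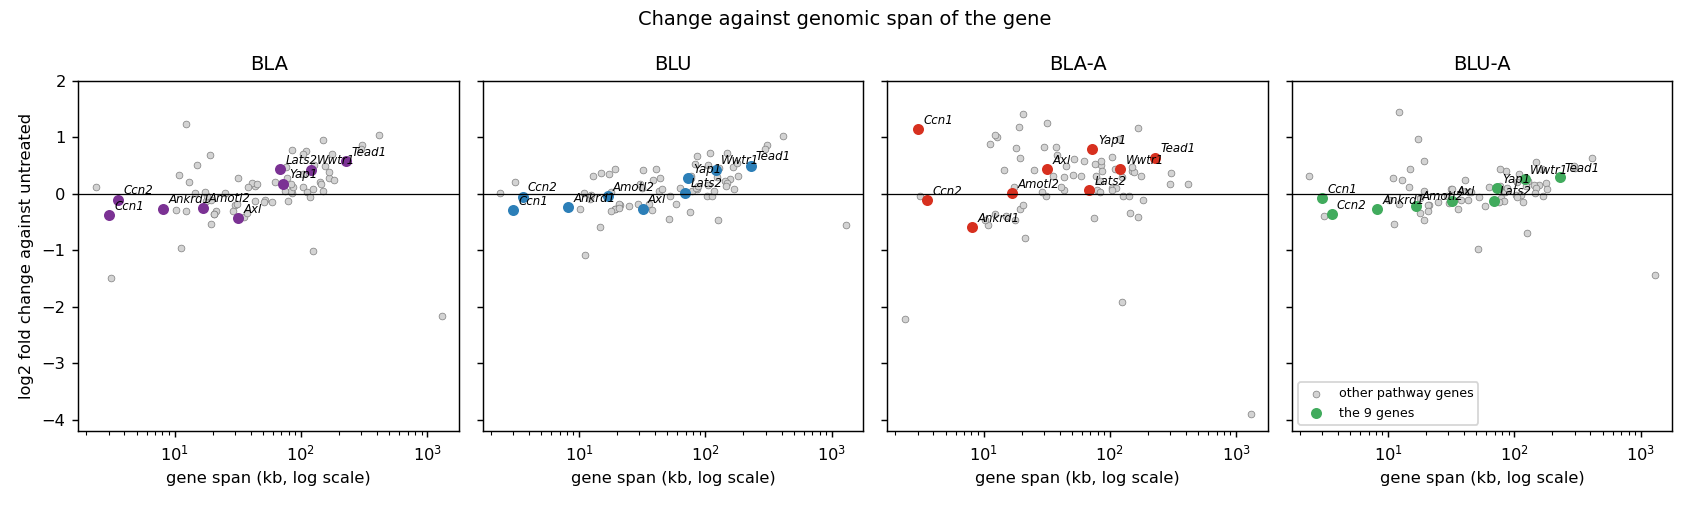
Log2 fold change against untreated cells (vertical axis) and genomic span in kb (horizontal axis, log scale) for the 9 genes (coloured, named) and 66 other tested pathway genes (grey) in each treatment. In BLA, BLU and BLU-A the 5 short targets lie below 0; in BLA-A Ccn1 and Axl lie above it.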

How the data were processed

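Bulk RNA-seq of 5 conditions was used. The authors removed ribosomal RNA, merged the mate files, aligned them as single-end reads with STAR (GRCm39), and counted per gene, introns included, in OmicsBox. The deposited counts are not normalized. The labels also name DESeq2 1.36.0. Deposited tables of the authors' own comparisons (log2 fold changes, p-values, enrichment scores) were not used. Each column has its own batch date, so batch and condition cannot be told apart.

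The 3 columns of each condition were averaged and rounded into 1 library, under a rule that their chi-square per degree of freedom, over genes averaging 10 counts or more, be below 1.5. A gene was kept if any library reached 1 CPM (17647 genes). TMM factors were computed, and fold changes used log2 of CPM plus 0.5, which understates those of low genes. Single conditions were compared with no test. Exact conditional binomial intervals (95%) cover counting error only. Groups of libraries were compared in edgeR by quasi-likelihood F-tests, with p-values adjusted by Benjamini-Hochberg at 0.05 over all genes. The SE given with these tests was derived as the size of the log2 fold change divided by the square root of F. The fit was tested on simulated data. Alternatives were DESeq2, other scaling, filters and pseudocounts (0.1 or 1), leaving out columns or libraries, and the 15 columns as separate samples.

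The 9 genes and the gene lists were chosen with earlier results of these data known. Named are the 9 genes, listed pathway genes whose log2 fold change exceeded 1 in either direction in any treatment, all TEAD and CCN genes, and the 3 profiles nearest to each of Ccn1, Ccn2 and Ankrd1. Positions and spans came from GENCODE M39 (GRCm39), which held the symbols of 85.3% of rows. Versions were edgeR 4.0.16, DESeq2 1.42.0 and R 4.3.3, with pandas 2.3.3 and numpy 2.4.6 under Python 3.11.15.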

Additional observations from a re-analysis of the deposited data

Results flagged for a closer look

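For 3 genes the nanoparticle differed from its extract in opposite directions in the 2 berries, with both counting intervals apart from 0. The log2 difference of Yap1 was 0.60 for BLA-A against BLA and -0.18 for BLU-A against BLU. That of Amotl2 was 0.25 and -0.17. That of Tead1 was 0.07 and -0.21, but with scaling by total counts the first value was -0.09 and the opposite direction was gone. Each arm has 1 library, so the difference between the berries was not tested.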

How the results depend on the processing

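Of 792 log2 fold changes of the 9 genes between conditions under the alternatives, 775 kept their sign and 726 stayed within the counting interval. Many of these alternatives could hardly turn a sign. Leaving out a column or splitting the columns re-used the same libraries, and the pseudocounts were small beside the levels of these genes. Most of the turned signs came with another scaling or filter, so the pooled counts overstate how stable the values are. With scaling by total counts, 0 of the 9 genes passed the fold limit in BLA-A against untreated cells. For treated against untreated libraries, the 4 calls over all genes became 18 by DESeq2 and 34 without BLA-A. For nanoparticles against extracts, the 0 calls became 554 with no filter on low counts (1 of the 9 genes, Ccn1, adjusted p = 0.00425 in edgeR), 36 by DESeq2, 14 without BLA, 1 without BLU, 43 without BLA-A and 4118 without BLU-A, where 3 of the 9 genes passed (Yap1, Ccn1 and Axl). For blackberry against blueberry, the 0 calls became 289 with no filter, 27 by DESeq2, 4980 without BLA (3 of the 9 genes, again Yap1, Ccn1 and Axl), 23 without BLU, 334 without BLA-A and 9 without BLU-A. Without BLU-A, the spread in the test of nanoparticles came only from BLA against BLU. Without BLA, that in the test of the berries came only from BLU against BLU-A. A lone library of an arm is then assumed to vary like that pair. The cause of the changed counts was not tested.

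The test values of some genes changed sign with 1 library left out, though none was then past the limit in the other direction. For treated against untreated, they ran from -0.27 to 0.05 for Axl, from -0.25 to 0.45 for Ccn1 and from 0 to 0.22 for Lats2. For nanoparticles against extracts, they ran from -0.13 to 0.66 for Yap1, -0.17 to 0.11 for Wwtr1, -0.24 to 0.21 for Tead1, -0.29 to 0.07 for Ccn2 and -0.07 to 0.25 for Amotl2, which was at -0.04 with scaling by total counts. For blackberry against blueberry, they ran from -0.01 to 0.59 for Yap1, -0.19 to 1.34 for Ccn1, -0.12 to 0.15 for Amotl2 and -0.25 to 0.63 for Axl, and Wwtr1, Ccn2 and Amotl2 were at -0.02, -0.01 and -0.10 with scaling by total counts.

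The replicate numbers did not pair the columns, since the deviations of same-numbered columns had correlations of -0.0199 to 0.0146 over 30 pairs. With the 15 columns as separate samples and a replicate block, 14182 genes passed for treated against untreated (9 of the 9 genes), 14865 for nanoparticles against extracts (9) and 14610 for blackberry against blueberry (8). These columns differed by less than the sampling noise, so such calls measure counting error only.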
